A study of Mus musculus with 39 samples.

Results

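The genes with which T cells build and drive the T cell receptor complex were followed across 4 tissues of Prf1-/- mice. They were chosen by name, with earlier results of these data known, and are Cd3d, Cd3e, Cd3g and Cd247, which encode the signalling chains of the receptor, Cd4, Cd8a and Cd8b1, which encode the coreceptors, Lck, which encodes the kinase bound to the coreceptors, and Cd28 and Cd5, which encode a costimulatory and an inhibitory receptor of the T cell surface. Each of the 10 members had a row among the 24537 genes counted in kidney, liver and lung and among the 52508 gene models counted in skin. The study compared 39 bulk libraries from 3 groups of male C57BL/6 mice, all of which lacked Prf1, the gene of perforin, the pore-forming protein with which cytotoxic lymphocytes kill their targets. Young mice were 3 months old and untreated, so that between young and vehicle-treated mice the effects of age and of the injections cannot be told apart. Old mice were 20 months old and had received, from the age of 18 months, monthly intraperitoneal courses of either ABT-737 at 25 mg/kg, which blocks survival proteins related to BCL-2, or of its DMSO-based vehicle. Kidney, liver and lung had 4 young, 3 vehicle-treated and 3 ABT-737-treated libraries each, and skin had 3 of each. The libraries of some drug-treated mice carry another compound number in their treatment label but ABT-737 in the study's methods, and they were kept in the ABT-737 group. Because perforin was absent from every group, including the young mice, no value here compares Prf1-/- with wild-type animals. The tissues were taken after perfusion.

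The T cell receptor itself has no signalling domain. Its antigen-binding chains sit in the membrane with dimers of the CD3 gamma, delta and epsilon chains and of the zeta chain, encoded by Cd247, whose cytoplasmic tails are phosphorylated by LCK when CD4 or CD8 brings that kinase to the engaged receptor. CD4 binds MHC class II and CD8 binds MHC class I, so the coreceptors divide T cells into helper and cytotoxic lineages. CD28 gives the second signal needed for activation, whereas CD5 restrains signalling and is also carried by a subset of B cells. In tissues outside the lymphoid organs these transcripts come from resident and infiltrating lymphocytes, although Cd4 is also found in some myeloid cells, Cd8a in some dendritic cells, and Cd247 and Lck in natural killer (NK) cells. In bulk tissue, fewer T cells and less RNA per T cell cannot be told apart.

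The CD3 genes lie together on chromosome 9 (build GRCm38, mm10). Cd3g occupies chr9:44969572-44980431 on the minus strand and Cd3d chr9:44981786-44987052 on the plus strand, so that they are read away from each other from starts 1355 bp apart, and Cd3e follows at chr9:44998743-45009590 on the minus strand. Cd8b1 (chr6:71322812-71337451) and Cd8a (chr6:71373427-71379171) also neighbour each other, both on the plus strand, with starts 50615 bp apart. The other members stand alone, Cd4 at chr6:124864693-124888209, Lck at chr4:129548344-129573641 and Cd5 at chr19:10718143-10738974 on the minus strand, Cd247 at chr1:165788681-165862112 and Cd28 at chr1:60746388-60773359 on the plus strand. In GENCODE M21, an antisense and a same-strand transcript overlap Cd3e, and several non-coding transcripts lie within Cd247. Whether strand was used in counting is not given in the sources used here, so reads of these neighbours cannot be told apart from those of the member. RefSeq promoter windows on GRCm38.p6 were found for 7 of the 10 members, in 8 windows because Lck has 2 starts. The 250 bases before the start are shown for the 3 neighbouring CD3 genes and for the distal start of Lck, because these are the signalling genes that the results turn on. Capitals mark the letters AGGAAG, the core bound by ETS factors, and TGTGGT, the core bound by RUNX factors, on either strand.
Cd3g, chr9:44980432-44980681, minus strand: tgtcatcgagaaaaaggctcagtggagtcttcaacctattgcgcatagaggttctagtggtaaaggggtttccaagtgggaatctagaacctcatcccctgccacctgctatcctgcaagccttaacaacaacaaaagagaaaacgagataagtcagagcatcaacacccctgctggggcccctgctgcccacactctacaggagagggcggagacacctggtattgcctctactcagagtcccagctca
Cd3d, chr9:44981536-44981785, plus strand: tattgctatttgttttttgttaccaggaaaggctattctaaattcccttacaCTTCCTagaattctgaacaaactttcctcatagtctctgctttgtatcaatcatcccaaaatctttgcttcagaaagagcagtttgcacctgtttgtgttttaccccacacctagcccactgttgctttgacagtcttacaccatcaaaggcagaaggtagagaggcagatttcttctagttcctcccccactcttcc
Cd3e, chr9:45009612-45009861, minus strand: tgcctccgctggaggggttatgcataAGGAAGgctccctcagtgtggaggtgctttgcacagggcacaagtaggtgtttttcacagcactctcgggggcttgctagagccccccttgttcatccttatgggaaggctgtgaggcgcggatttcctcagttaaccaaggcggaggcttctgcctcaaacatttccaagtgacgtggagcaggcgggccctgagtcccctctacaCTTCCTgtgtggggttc
Lck, chr4:129573642-129573891, minus strand: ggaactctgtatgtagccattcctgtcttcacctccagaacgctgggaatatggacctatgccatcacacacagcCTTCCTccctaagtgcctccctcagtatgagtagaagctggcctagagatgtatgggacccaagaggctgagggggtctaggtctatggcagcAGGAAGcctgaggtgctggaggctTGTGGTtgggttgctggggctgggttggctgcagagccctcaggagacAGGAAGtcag
The ETS letters stood in 6 of the 8 windows and 5 of the 7 genes, against 29.5% of all 32851 promoter windows of that length, and the RUNX letters in 1 of the 8 windows, the distal start of Lck, against 14%. The E-box CAGCTG and the TATA letters TATAAA stood in none of the 8, against 13% and 12.4% of all windows. These matches describe the letters only.

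The libraries were counted from the 3′ ends of transcripts. Total counts per library were 1431814 to 3513311 in kidney, 223957 to 891116 in liver, 1046508 to 2600092 in lung and 1493411 to 3842808 in skin, so that liver resolved low genes least. Markers of each tissue were high in the libraries labelled with it, with at least 51583 CPM (counts scaled to a library of 1000000) summed over hepatocyte genes in liver, 10275 over kidney genes in kidney, 29552 over epithelial genes in lung and 11563 over keratinocyte genes in skin. Levels use the normalized library size within a tissue. Among the vehicle-treated lungs, replicate 5 stood apart, with 1814 CPM summed over the 10 members against 509.8 and 645.9 in the other two, and with 8108 CPM over 10 pan-leukocyte genes against 2961 and 3373. It was the highest lung library for 9 of the 10 members, Cd4 being the exception. Lung results are therefore also given without it. Among the vehicle-treated mice, replicate 4 held the highest level of B cell genes in kidney (112 CPM summed over 10 genes, against 10.99 and 12.2) and in liver (144 against 16.7 and 26.2). Cd5, which some B cells also carry, had 7 of its 12 vehicle kidney counts in replicate 4 and 0 counts over the vehicle livers. The part of B cells in Cd5 was not tested.

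In young mice most of the T cell genes stood higher in lung than in kidney, whereas lung and liver were set apart less clearly. In 1 fit over the 30 kidney, liver and lung libraries, with levels in CPM on the scale of that fit, Lck stood at 52.4 ± 11.2 (SD, n = 4) in lung, 4.37 ± 1.58 in kidney and 2.88 ± 3.35 in liver. Cd8b1 stood at 7.34 ± 1.61 in lung and 0.703 ± 0.520 in kidney, and had no count in any young liver. Lung exceeded kidney for 7 of the 10 members in edgeR's quasi-likelihood test (adjusted p under 0.05, 32.6% of the 13107 genes tested were called higher), with log2 differences from 2.02 ± 0.55 (SE) for Cd3e to 3.52 ± 0.40 for Lck. Cd8a, Cd3g and Cd28 did not pass, and Cd8a stood at 3.81 ± 2.40 in lung against 2.67 ± 0.862 CPM in kidney (log2 difference 0.57 ± 0.59, adjusted p = 0.405). Lung exceeded liver for 4 of the 10 members, Cd247, Cd8b1, Lck and Cd3e, a share close to the 37.6% of all genes called higher in lung than in liver. Kidney and liver came next to each other in this order and differed beyond their spread for 0 of the 10 members, against 27.6% of genes higher in kidney, with SEs of up to 3.79 on the log2 scale because the young livers held few counts. Skin was counted on other gene models and is not ranked with them.

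All 10 members were higher in the lungs of old vehicle-treated mice than in young lungs. The groups did not overlap for any of the 10, against 12.3% of the 17620 genes with at least 1 count that were higher without overlap. All 10 also passed edgeR's quasi-likelihood test, both among the 11949 genes kept by the expression filter (8.15% of genes called higher) and among all genes with at least 1 count (6.66%). The median log2 change over the 10 was 3.75, beside 0.05 over all genes with a count.

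Among the CD3 chains, Cd3d and Cd3g had the largest fitted changes of the 10 members, both with and without vehicle replicate 5. Cd3d read 4.41, 5.56, 4.34 and 8.32 CPM in the 4 young lungs and 64.4, 49.3 and 310 CPM in vehicle replicates 3, 4 and 5. Every vehicle library thus lay well above the highest young one, and replicate 5 far above the other two. The log2 fold change was 4.63 ± 0.73 (SE, adjusted p = 0.00294), and 3.31 ± 0.58 without vehicle replicate 5 (adjusted p = 0.00973). Cd3e rose by 3.91 ± 0.49 on the log2 scale (adjusted p = 0.00219), from a mean of 6.96 ± 2.95 CPM (SD, n = 4) to 105.5 ± 73.5 (n = 3), and by 3.17 without that library. Cd3g rose by 4.49 ± 0.83 (adjusted p = 0.00485), or 3.42 without it, with its lowest vehicle library, replicate 4 at 9.01 CPM, nearest to the young range of 0.543 to 3.92. For Cd247 the change was 3.42 ± 0.55 (adjusted p = 0.00306), or 2.33 without vehicle replicate 5, and the 4 young lungs read 5.56 to 8.14 CPM.

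Each of the 3 coreceptor genes rose in the lung. Cd8b1 read 11.8, 6.95, 9.77 and 8.32 CPM in young lungs and 62.4, 66.5 and 252 CPM in vehicle lungs, a log2 change of 3.77 ± 0.49 (adjusted p = 0.00219) that was 2.79 without vehicle replicate 5. Cd8a, which encodes the chain that can also pair with itself, changed by 4.26 ± 0.66 (adjusted p = 0.00284), from 4.76 ± 2.99 to 94.3 ± 81.2 CPM, and by 3.26 without replicate 5. Cd4 read 12.8, 9.04, 12.5 and 14 CPM in young lungs and 30.9, 91.3 and 68.8 CPM in vehicle lungs. Its vehicle libraries again lay above every young one, but here replicate 4, not replicate 5, was highest, and the change was 2.39 ± 0.42 (adjusted p = 0.00398), or 2.33 without replicate 5. The number of Cd8a and Cd8b1 counts per Cd4 count was 0.913 to 1.5 in the 4 young lungs and 3.74, 1.19 and 6.40 in vehicle replicates 3, 4 and 5. Only replicates 3 and 5 lay above the young range, so the ratio overlapped between the groups.

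Lck was the member with the most counts in the lung, and so the most precisely counted. It read 76.5, 57, 79.2 and 49.9 CPM in young lungs and 158, 254 and 497 CPM in vehicle lungs. The vehicle libraries were widely spread yet all lay above the young ones, and the log2 change of 2.21 ± 0.38 was the smallest of the 10 (adjusted p = 0.00387), as was the 1.65 without vehicle replicate 5. Cd5 changed by 3.35 ± 0.65 (adjusted p = 0.00597), from 1.92 ± 1.42 to 20.96 ± 13.9 CPM, and by 2.63 without that library. Cd28 was barely counted in young lungs, with 4 counts over 4 libraries, and had 9, 10 and 37 counts in the vehicle lungs. Its log2 change was 3.74 ± 0.79 (adjusted p = 0.00844), and it was the member whose call was lost without vehicle replicate 5 (3.05 ± 0.88, adjusted p = 0.0732). The other 9 members passed without that library (adjusted p = 0.00188 to 0.0415).

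**Figure D1:**
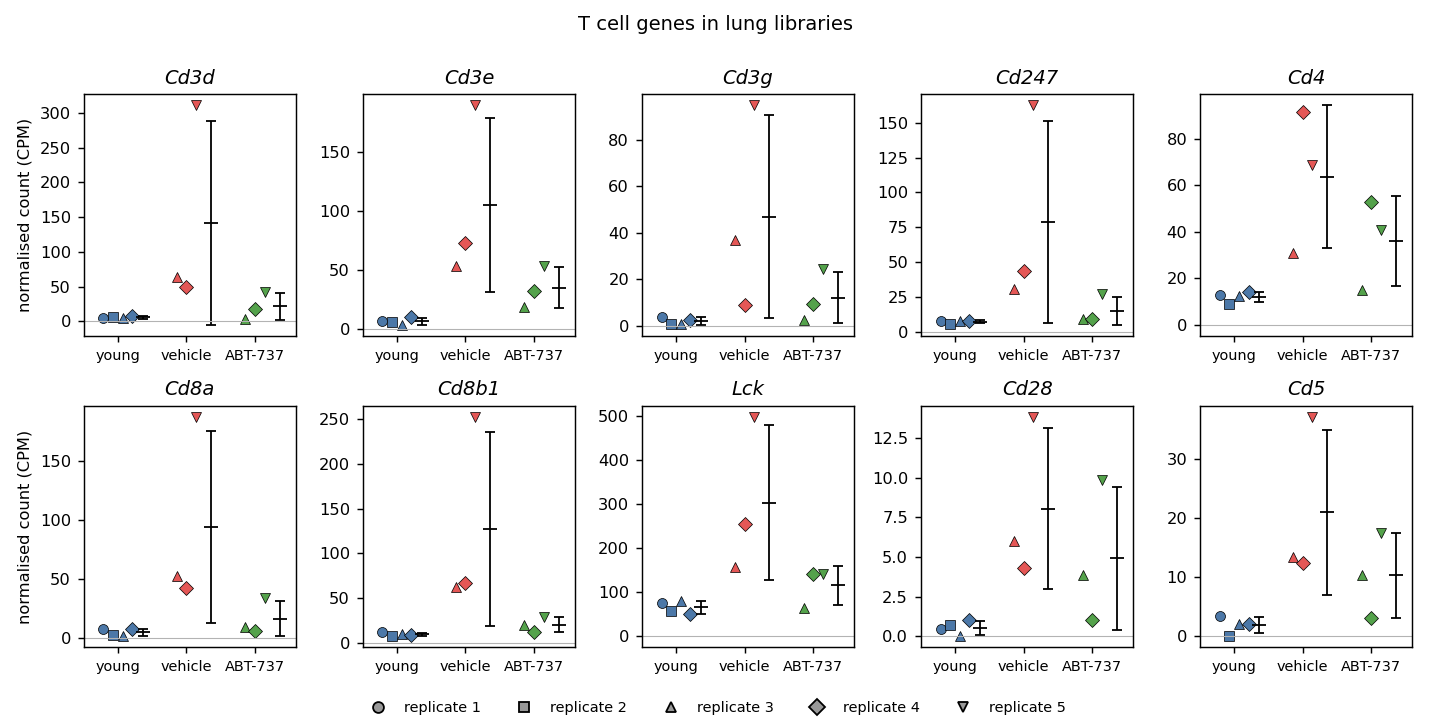
Normalized counts (CPM) of each T cell gene in every lung library, with 4 young, 3 vehicle-treated and 3 ABT-737-treated mice; symbols give replicate numbers, and the bars beside the points are the mean ± SD. Vehicle libraries lie above all young libraries for each gene, and vehicle replicate 5 is the highest library for 9 of the 10.

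Between ABT-737 and vehicle, the fitted change in the lung was downward for all 10 members, but none passed the main test. Adjusted p-values ran from 0.0984 for Cd8b1 to 0.681 for Cd28 (edgeR's quasi-likelihood test), and 0 of 11949 genes, 0%, were called lower, although 7 of the 10 members had an unadjusted p under 0.05, as did 16.1% of all genes in either direction, and 4 passed by DESeq2, which called 2.56% of its genes in either direction. For Cd8b1, the ABT-737 lungs read 20, 11.6 and 29.1 CPM in replicates 3, 4 and 5. All 3 lay below the lowest vehicle lung (62.4 CPM), and the log2 change was -2.61 ± 0.51. For Cd3d, the ABT-737 lungs read 3.86, 17.9 and 42.5 CPM, also all below the vehicle lungs, with a change of -2.68 ± 0.72 (adjusted p = 0.129). Cd247, Cd8a and Lck did not overlap between the groups either, which made 5 of 10 members, against 5.39% of the genes with at least 1 count. The other 5 overlapped, among them Cd4, which read 14.8, 52.7 and 40.7 CPM after ABT-737 and changed by -0.85 ± 0.43 (adjusted p = 0.355), Cd5 (-0.95 ± 0.59, adjusted p = 0.448) and Cd28 (-0.58 ± 0.63, adjusted p = 0.681). Cd28 read 3.86, 1.05 and 9.84 CPM in the ABT-737 lungs against 6.04, 4.29 and 13.8 in the vehicle lungs, so that each group spanned much of the other.

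How many members passed in the lung turned on the fit. Vehicle and ABT-737 lungs of the same replicate number correlated in their deviations at 0.176 to 0.427, while lungs of unlike numbers reached up to 0.302. The labels do not say that the numbers pair mice, so a fit with pairs is given as an alternative to the main test. With the replicate number as a block, 4 members passed, Cd3d, Cd247, Cd8a and Cd8b1, each with an adjusted p of 0.0362, beside 0.451% of 11519 genes called lower, and Cd3e followed at 0.0619. The same 4 passed when all genes with at least 1 count were fitted (0.579% called lower), and the median log2 change over the 10 members was then -1.76, beside 0.03 over all genes with a count. In the fit without vehicle replicate 5 none passed, the changes of Cd3d and Cd8b1 shrank to -1.35 ± 0.58 and -1.63 ± 0.35, and that of Cd28 became 0.10 ± 0.72. With both libraries numbered 5 left out, a choice made after the data were seen, Cd8b1 stood at -1.98 (adjusted p = 0.0559) and again none passed. Without ABT-737 replicate 5, in contrast, Cd3d, Cd247, Cd8a and Cd8b1 passed (adjusted p = 0.035 to 0.0416), and without ABT-737 replicate 4 Cd8b1 alone did (adjusted p = 0.0247).

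In the kidney, T cell genes were higher in old vehicle-treated than in young mice, and some of them fell with ABT-737. Between vehicle and young, 9 of the 10 members were higher without overlap, against 12% of the 17097 genes with at least 1 count. The same 9 passed when all those genes were fitted (6.18% called higher), and Cd28, with 3 counts over the vehicle kidneys and 4 over the young ones, was the exception. Between ABT-737 and vehicle, 5 members did not overlap (7.22% of genes were lower without overlap) and 3 of the 10 passed (1.59% called lower), namely Cd3d, Cd8a and Lck. The median log2 change over the 10 members was 2.58 between vehicle and young and -1.35 between ABT-737 and vehicle, beside 0 over all genes with a count in both. Under the expression filter, which 5 members met in kidney, the calls were 5 higher (7.75% of 11123 genes) and 3 lower (1.21%). All of these but Lck met the filter through the vehicle kidneys alone, where they were highest. The share called under the filter therefore partly follows from the filter.

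Cd3d read 1.29, 0.276, 0.878 and 1.38 CPM in the young kidneys, 5.5, 6.84 and 9.39 in vehicle replicates 3, 4 and 5, and 1.03, 0.495 and 1.04 after ABT-737. The drug-treated kidneys thus lay within the young range and below every vehicle kidney. The change was 2.97 ± 0.44 on the log2 scale between vehicle and young (adjusted p = 0.000303) and -3.01 ± 0.53 between ABT-737 and vehicle (adjusted p = 0.00706). It rests on few counts, 44 over the vehicle kidneys and 5 over the ABT-737 kidneys. Cd3e was higher in vehicle than in young kidneys (2.38 ± 0.47, adjusted p = 0.00309), and its ABT-737 level of 2.92 ± 1.85 CPM (SD, n = 3), against 8.08 ± 2.29 with vehicle, did not pass (-1.44 ± 0.49, adjusted p = 0.171). Cd3g and Cd247 were below the filter. In the fit of all counted genes they rose between young and vehicle (adjusted p = 0.00144 and 0.00299), although the call of Cd3g was lost when vehicle replicate 5 was left out (adjusted p = 0.0851), and between ABT-737 and vehicle their groups overlapped, with 12 against 27 counts and 15 against 33.

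Cd8a read 4.29, 1.93, 2.93 and 2.77 CPM in young, 11.8, 15.7 and 8.45 in vehicle and 3.08, 1.48 and 4.15 in ABT-737 kidneys. Here too the ABT-737 kidneys overlapped with the young ones and lay below every vehicle kidney, and the changes were 2 ± 0.35 (adjusted p = 0.00116) and -2 ± 0.41 (adjusted p = 0.0192). Its partner Cd8b1 read 0.858, 1.38, 0.878 and 0 CPM in young, 7.85, 7.53 and 10.3 in vehicle and 4.11, 3.46 and 3.12 in ABT-737 kidneys. In contrast to Cd8a, every ABT-737 kidney lay between the young and the vehicle kidneys. Cd8b1 rose by 3.25 ± 0.43 between young and vehicle (adjusted p = 0.000113), and its change with ABT-737 did not pass (-1.26 ± 0.40, adjusted p = 0.134). Cd4 varied most among the vehicle kidneys, at 2.36, 15.7 and 4.7 CPM, of which replicate 4 was also the kidney with the most B cell counts. Its rise over young kidneys (adjusted p = 0.00802 in the fit of all counted genes) was lost without that library (adjusted p = 0.236). After ABT-737, Cd4 read 4.62, 0 and 4.15 CPM and overlapped with vehicle.

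Lck had the most counts of the 10 members in the kidney. It read 4.72, 4.96, 7.03 and 2.77 CPM in young, 34.9, 36.9 and 37.6 in vehicle and 9.25, 4.45 and 6.75 in ABT-737 kidneys. The 3 vehicle kidneys were nearly equal, and the ABT-737 kidneys lay at or just above the young level. The change was 7.16-fold upward between young and vehicle (log2 2.84 ± 0.25, adjusted p = 3.62e-06) and 5.33-fold downward between vehicle and ABT-737 (log2 -2.41 ± 0.28, adjusted p = 0.000397). Leaving out any 1 kidney library kept both of these calls, whereas the fall of Cd3d was lost without ABT-737 replicate 4 (adjusted p = 0.0635) and that of Cd8a without vehicle replicate 4 (0.0809) or ABT-737 replicate 3 (0.0663) or 4 (0.104). Cd5 had 3, 12 and 3 counts over the young, vehicle and ABT-737 kidneys. Its rise passed in the fit of all counted genes (adjusted p = 0.0495), but not without vehicle replicate 4, which held 7 of the counts (0.426), or without young replicate 1 (0.0633), 3 (0.151) or 4 (0.111). Cd28 had 4, 3 and 2 counts.

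**Figure D2:**
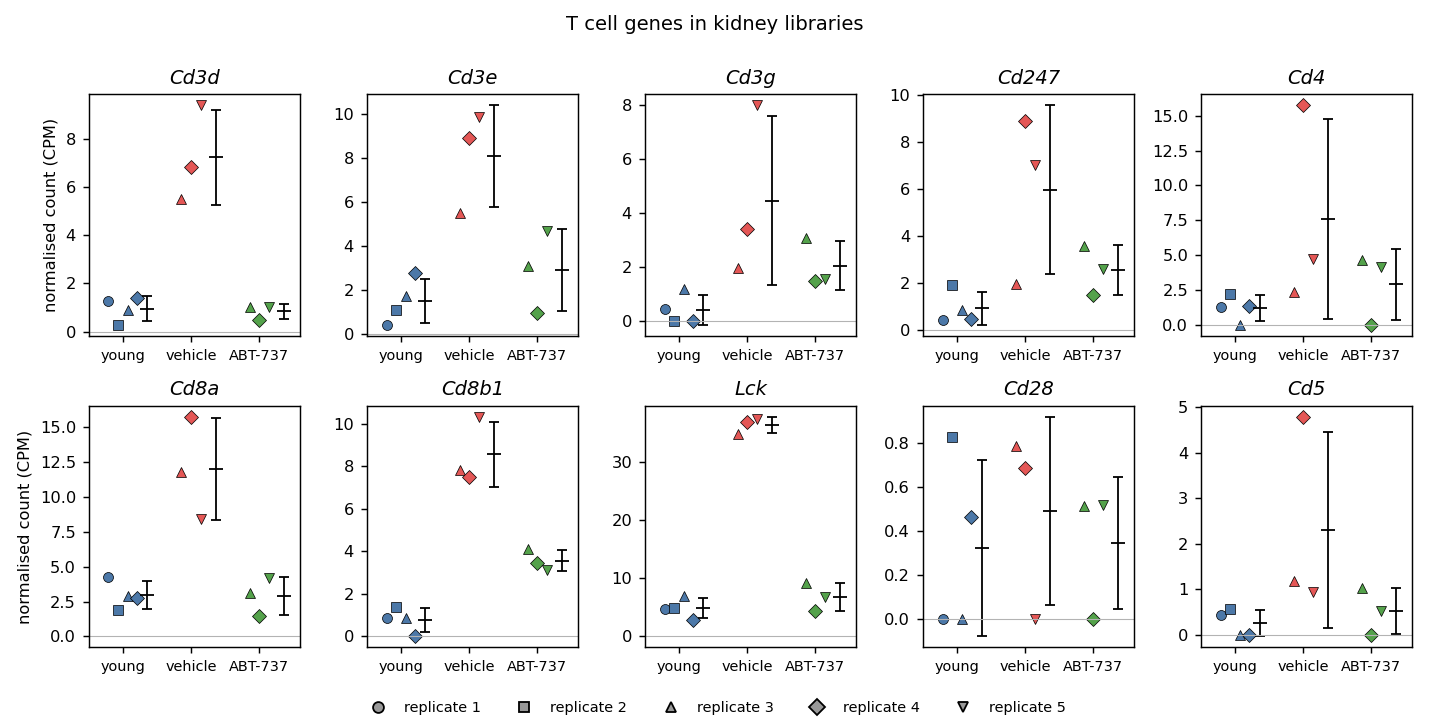
Normalized counts (CPM) of each T cell gene in every kidney library, with 4 young, 3 vehicle-treated and 3 ABT-737-treated mice; symbols give replicate numbers, and the bars beside the points are the mean ± SD. For Cd3d, Cd8a and Lck, every ABT-737 kidney lies below every vehicle kidney, and the 3 vehicle kidneys of Lck lie between 34.9 and 37.6 CPM.

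**Figure D3:**
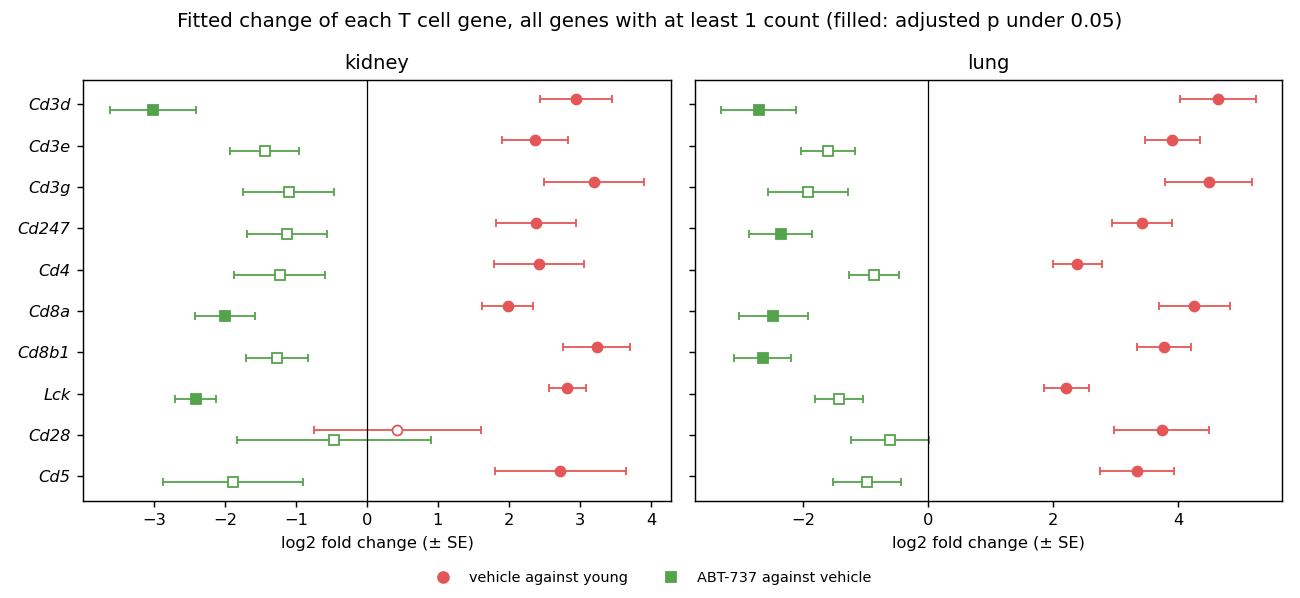
Log2 fold change of each T cell gene in kidney and lung with its standard error, from the fit of all genes with at least 1 count; circles compare vehicle with young and squares ABT-737 with vehicle, and filled symbols have an adjusted p under 0.05. Apart from Cd28 in kidney, every circle is filled, whereas squares are filled for 3 genes in kidney and 4 in lung.

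In the liver none of the 10 members met the expression filter, so the counts themselves are given. Over the 3 ABT-737 livers, which held 267345 to 560554 counts each, the 10 members together had 3, 3 and 5 counts, against 14, 62 and 78 in the vehicle livers and 2, 2, 8 and 3 in the young ones. The vehicle livers therefore stood above both other groups in spite of replicate 3 having the lowest total count of all. In CPM, the sum was 61.1, 72.6 and 100.2 in vehicle livers, against 5.69 to 12.4 after ABT-737 and 2.98 to 12.3 in young mice. When all 14330 genes with at least 1 count were fitted, 5 of the 10 members passed as higher in vehicle than in young livers (6.79% of genes) and 3 as lower after ABT-737 (2.54%). Without overlap, 8 were higher in vehicle than in young livers (10.4% of genes) and 7 lower after ABT-737 (8.09%).

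Cd3e had 2, 10 and 7 counts in vehicle livers and none in any of the 3 ABT-737 livers. With 3 counts over the group taken as the floor, it was 4.03-fold lower after ABT-737 (adjusted p = 0.0174 in the fit of all counted genes). The 95% counting interval of its ratio, which also takes in the error of the vehicle counts, reached up to 0.337. Young livers held 1 count of Cd3e in all, and the rise between young and vehicle passed (adjusted p = 0.00158). Cd8a followed the same course, with 2, 10 and 8 counts in vehicle livers, 2 over the 4 young livers and none after ABT-737. It was 4.24-fold lower after ABT-737 at the same floor (adjusted p = 0.0129), and the counting interval of its ratio reached up to 0.319. Both falls were lost without vehicle replicate 4 (adjusted p = 0.0821 for Cd3e and 0.0511 for Cd8a) and without ABT-737 replicate 4 (0.171 and 0.145) or 5 (0.1 and 0.0848), and that of Cd3e also without ABT-737 replicate 3 (0.0546). Cd8b1 had no count in any young liver, 1, 10 and 6 in vehicle livers and 2 in all after ABT-737. Its rise was 7.18-fold at that floor (adjusted p = 0.000422), with a counting interval of the ratio from 5.23 upward. Its fall did not pass (ratio 0.185, 95% counting interval 0.0207 to 0.780, adjusted p = 0.333).

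Lck had 2, 10 and 37 counts in the vehicle livers, 5 over the young livers and 2 over the ABT-737 livers. Most of its vehicle counts came from replicate 5, yet each of the 3 vehicle livers lay above the others in CPM (8.73, 11.7 and 47.5 against 0 to 4.61). It passed in both comparisons (adjusted p = 1.33e-06 for the rise and 0.00033 for the fall). Without vehicle replicate 5, the log2 change was 2.2 between vehicle and young and -2.47 between ABT-737 and vehicle, and neither passed (adjusted p = 0.0674 and 0.227). Cd3d passed for the rise (adjusted p = 0.00304, and 0.0609 without vehicle replicate 5) and not for the fall (0.144), with 17 counts over vehicle livers against 1 in each of the other groups. Cd4 had 5, 17 and 3 counts over young, vehicle and ABT-737 livers, Cd247 had 1, 9 and 2, and Cd3g had 0, 5 and 0, and none of these passed. Cd28 and Cd5 had 1 count each over all 10 livers. These intervals cover counting error only, and the folds at the floor leave out the counting error of the other group.

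**Figure D4:**
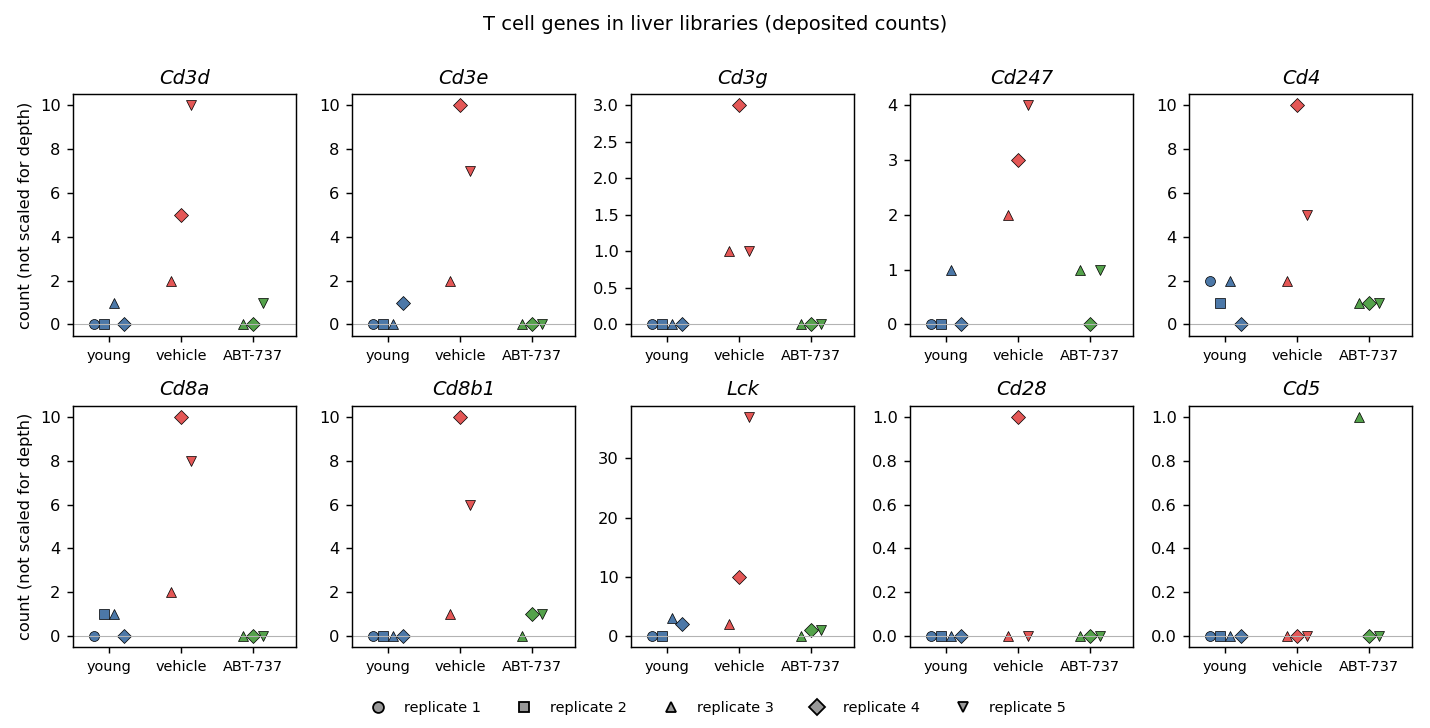
Deposited count of each T cell gene in every liver library, not scaled for depth, with 4 young, 3 vehicle-treated and 3 ABT-737-treated mice; symbols give replicate numbers. Cd3e and Cd8a have no count in any ABT-737 liver and 2 to 10 in the vehicle livers, while Cd28 and Cd5 have 1 count each in all.

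In the skin the T cell genes were sparse, and either fit called 3 of the 10 members higher in vehicle-treated than in young mice, with Cd4 and Lck called by both. Between vehicle and young, 5 of the 10 members were higher without overlap (12.1% of 29019 genes with at least 1 count), Cd3d, Cd4, Cd8b1, Lck and Cd28. In the fit of all counted genes, 3 passed, Cd4, Cd8b1 and Lck (4.91% called higher). With the expression filter, which Cd3d, Cd4 and Lck met, those 3 passed (5.84% of 14224 genes called higher). Cd3d met the filter through the vehicle skins alone, and Cd4 and Lck met it through old skins alone. This share therefore partly follows from the filter. Between ABT-737 and vehicle no member passed in either fit, where 0% and 0.0896% of genes were called lower, and 4 of the 10 had an unadjusted p under 0.05 in the fit of all counted genes, beside 6.87% of those genes in either direction. DESeq2 called 0 members and 0.375% of its genes. Without overlap, 4 members, Cd3d, Cd3g, Cd247 and Cd8b1, were lower after ABT-737 (4.37% of genes).

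Lck read 1.45, 0 and 0 CPM in young skin, 8.79, 5.69 and 24.8 in vehicle-treated skin and 1.56, 6.27 and 6.70 after ABT-737. Vehicle skin lay above all young skin, and ABT-737 skin overlapped with vehicle. The rise was 4.95 ± 1.13 on the log2 scale (adjusted p = 0.0282) and stood on 2 young counts (ratio 38.5, 95% counting interval 10.4 to 321). Cd4 read 0, 0.575 and 0.91 CPM in young, 2.64, 8.9 and 7.72 in vehicle and 1.04, 2.74 and 4.27 in ABT-737 skin. It rose by 3.45 ± 0.85 between young and vehicle (adjusted p = 0.0345), and its change with ABT-737 was -1.29 ± 0.61 (adjusted p = 0.651). Cd8b1 had 2, 42 and 4 counts over young, vehicle and ABT-737 skin. It passed for the rise (adjusted p = 0.0385 in the fit of all counted genes). That call was lost without young replicate 1 (0.127) or 3 (0.141) or vehicle replicate 5 (0.118). Cd8b1 also had the lowest adjusted p of the 10 for the fall (0.138). The fall passed without vehicle replicate 3 (0.00731) or 4 (0.0275) or ABT-737 replicate 3 (0.00247). Cd3d rose by 2.02 ± 0.57 (adjusted p = 0.0498), just inside the threshold, and stood at 0.0525 in the fit of all counted genes. Under the filter, 0 of the 3 calls were left when any 1 young skin or the vehicle skin numbered 5 was dropped, whereas 1 was left on dropping the one numbered 4 and 2 on dropping the one numbered 3.

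Some CD3 chains did not pass between young and vehicle-treated skin. Cd247 read 3.62, 2.88 and 4.09 CPM in young and 3.08, 4.98 and 4.41 in vehicle skin, a log2 change of 0.27 ± 0.57 (adjusted p = 0.848), and Cd3g changed by 0.68 ± 0.59 (adjusted p = 0.554). Cd3e (1.743, adjusted p = 0.192), Cd5 (2.645, 0.16), Cd28 (2.371, 0.359) and Cd8a (1.08, 0.614) did not pass either. The highest skin library for Cd8a was young replicate 2, at 2.88 CPM. The skin values of Cd3d, Cd3g and Cd247 were counted on transcript models that cover another, shorter genomic span than those used in the other tissues. Skin was also the one table that lists the constant regions of the antigen-binding chains. Trbc2, a constant region of the beta chain, read 19.5, 25.9 and 37.8 CPM in young, 65.5, 66.2 and 103 in vehicle and 58.4, 49 and 51.2 in ABT-737 skin. All old skin thus lay above young skin, and Trbc2 rose by 1.49 ± 0.28 between young and vehicle (adjusted p = 0.017), while its change with ABT-737 was -0.57 ± 0.27 (adjusted p = 0.646). Trac, the constant region of the alpha chain, rose by 2.80 ± 0.71 (adjusted p = 0.036). Trbc1 (1.41 ± 0.44, adjusted p = 0.0665) and Trdc, of the delta chain of gamma-delta T cells (1.79 ± 0.67, adjusted p = 0.106), did not pass under the filter, and 87 of the 114 vehicle counts of Trdc came from replicate 5. These constant regions, named after their values were seen, are all the receptor chain genes that met the filter. The remaining ones had 1 count or none in each skin library. The 2 beta constant regions are close in sequence, so counts may have been split between them.

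The response to ABT-737 was not shown to differ between tissues for any member. In the fit over kidney, liver and lung, the difference of the ABT-737 change passed for 0 of 10 members in each pair of tissues, where 0% of all genes passed between lung and kidney, 0.29% between lung and liver and 0.0839% between kidney and liver. The fit took libraries of different tissues as independent although they share replicate numbers, and the intervals are wide. The lowest unadjusted p-values came from pairs with liver, where the fall was larger than in lung for Lck (log2 difference 2.51 ± 1.19, SE, unadjusted p = 0.042, adjusted p = 0.384) and Cd3e (6.07 ± 2.89, unadjusted p = 0.0435, adjusted p = 0.388) and larger than in kidney for Cd3e (6.22 ± 2.97, unadjusted p = 0.0444, adjusted p = 0.65). As Cd3e had no count in the ABT-737 livers, its fitted differences depend on the prior count. For Lck the fall was smaller in lung than in kidney (log2 difference 1 ± 0.59, SE, unadjusted p = 0.101, adjusted p = 0.622), and for Cd8b1 larger in lung (-1.36 ± 0.72, adjusted p = 0.576). For Cd3d the difference was 0.29 ± 0.89 (adjusted p = 0.975).

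Levels after ABT-737 were also set beside those of young mice. Treated and young groups did not overlap for 2 members in kidney, Cd3g and Cd8b1, where 7.24% of the genes with a count were higher without overlap. The lung had 4 such members, Cd3e, Cd247, Cd4 and Cd28 (6.65% of genes), the skin 2, Cd4 and Lck (11.8%), and the liver 0 (6.31%), in each case with treated mice higher. Under the expression filter, Cd3e in lung passed (2.34 ± 0.50 on the log2 scale, adjusted p = 0.0359, 2.15% of genes called higher), with 19.3, 32.7 and 53.7 CPM after ABT-737 against 3.8 to 10.9 in young lungs. This call was lost without any 1 of the young lungs (adjusted p = 0.0992 to 0.127) or ABT-737 replicate 5 (0.183). No member passed in kidney (1.38%) or skin (2%). When all counted genes were fitted, 1 member passed in kidney, Cd8b1 (1.71% called higher), 0 in liver (1.58%), 5 in lung, Cd3e, Cd3g, Cd4, Cd28 and Cd5 (3.81%), and 1 in skin, Lck (3.35%). This comparison shares its ABT-737 libraries with the comparison to vehicle and its young libraries with the comparison of vehicle to young.

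Leukocyte genes in general moved with the T cell genes, and in kidney and lung the T cell genes moved by more. In kidney the 10 members held 138 to 171 counts per 1000 counts of 10 pan-leukocyte genes in vehicle mice, 62.9 to 112.5 after ABT-737 and 66.7 to 92.4 in young mice. In lung they held 172 to 224, 118 to 132 and 89.2 to 110 in the same order, so that in both tissues every vehicle library exceeded all others in this share. In liver the shares overlapped, at 60.3 to 158.9, 42.9 to 73.2 and 21.5 to 84.2, and in skin they overlapped as well, at 65 to 71.5, 42.2 to 87.3 and 52.3 to 80. The pan-leukocyte genes themselves summed to 474 to 792 CPM in vehicle, 220 to 334 in ABT-737 and 153 to 188 in young kidneys, and to 2961 to 8108, 1188 to 3187 and 1009 to 1288 in the lung. In the lung the number of Cd8a and Cd8b1 counts per Cd4 count was 1.96, 0.340 and 1.54 in ABT-737 replicates 3, 4 and 5, against 3.74, 1.19 and 6.40 in the vehicle replicates of the same numbers. The groups overlapped in this ratio, although within each number the ABT-737 lung was the lower.

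**Figure D5:**
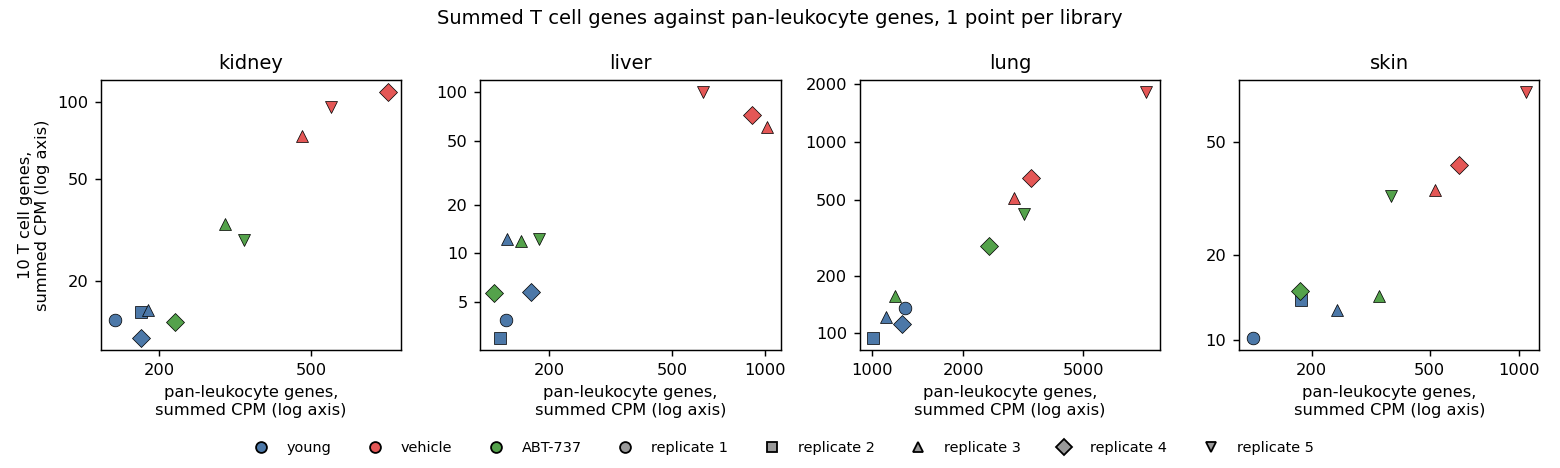
Summed CPM of the 10 T cell genes against summed CPM of 10 pan-leukocyte genes in each of the 39 libraries, on logarithmic axes with a panel per tissue; colours give groups and symbols replicate numbers. Vehicle libraries lie highest on the T cell axis in every tissue, and in the lung vehicle replicate 5 lies apart at 1814 against 8108 CPM.

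Some markers of NK cells, macrophages and dendritic cells also fell with ABT-737 in kidney and liver, where 1.21% and 2.85% of the genes that met the filter were called lower. NK cell genes, some of which cytotoxic T cells share, summed to 40.8 to 56.8 CPM in vehicle kidneys, 12.9 to 23.4 after ABT-737 and 4.13 to 9.66 in young kidneys, and to 268 to 1735, 91.5 to 322 and 58.9 to 92.8 in the lung. Nkg7, a granule protein of NK and cytotoxic T cells, fell with ABT-737 in kidney (-1.38 ± 0.29, adjusted p = 0.0254) and liver (-2.02 ± 0.50, adjusted p = 0.0321). Of the 11 NK cell genes it was the 1 tested in kidney and in liver. It held a mean of 38.8 of the 51.0 CPM summed in vehicle kidneys and 14.7 of 17.9 after ABT-737. The kidney sum thus mostly reflects Nkg7. Of the macrophage list, 4 of 9 tested genes fell in kidney and 6 of 7 in liver, led by the complement gene C1qa (-1.43 ± 0.23, adjusted p = 0.00365, and -2.40 ± 0.26, adjusted p = 0.00014). C1qb followed in kidney (-1.48 ± 0.27, adjusted p = 0.00916) and C1qc in liver (-2.54 ± 0.27, adjusted p = 0.00014). Of the B cell genes, 0 of 3 tested passed as lower in kidney, although all 3 had a fitted change below 0, and 0 of 10 met the filter in liver. In the fit of all counted genes in liver, 8 of 8 had a change below 0 and 1 passed as lower (2.54% of genes). The liver sum was 16.7 to 144 CPM with vehicle and 7.59 to 17.3 after ABT-737, so the groups overlapped. Summed over the list, B cell genes read 10.99, 112 and 12.2 CPM in vehicle kidneys and 14.35 to 32.4 after ABT-737, and in lung 4 of the 8 tested had a fitted change above 0. Of the dendritic cell list, 2 of 4 fell in kidney, Bst2 (-2.21 ± 0.27, adjusted p = 0.000504) and Irf8 (-0.85 ± 0.17, adjusted p = 0.0193), and 1 of 3 in liver, Batf3 (-2.75 ± 0.66, adjusted p = 0.0266). Pan-leukocyte genes fell for 5 of 9 tested in kidney, led by Laptm5 (-1.19 ± 0.17, adjusted p = 0.00178), and for 5 of 6 in liver, led by Coro1a (-3.07 ± 0.35, adjusted p = 0.0002) and Rac2 (-3.11 ± 0.40, adjusted p = 0.000348). In lung and skin, where 0% of genes were called lower under the filter, none of these genes passed as lower. Their fitted change was below 0 for 9 of 9 macrophage genes in lung and 10 of 10 in skin, and for 9 of 9 pan-leukocyte genes in each. For NK cell genes it was below 0 in 5 of 5 and 2 of 2, and for dendritic cell genes in 7 of 9 and 5 of 5. In the fit of all counted genes, 4 of 11 NK cell genes in lung passed as lower. In skin 1 of 10 dendritic cell and 1 of 10 pan-leukocyte genes did. The part of these cells in the T cell results was not tested.

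Genes that act with the receptor were taken from lists of the same pathway. Under the filter, 7.75%, 11.7%, 8.15% and 5.84% of all genes rose between young and vehicle in kidney, liver, lung and skin. With ABT-737, 1.21%, 2.85%, 0% and 0% fell in the same order. Of the 26 signalling genes of the receptor pathway, 13 were tested in kidney, where 9 rose between young and vehicle and 1 fell with ABT-737, Ptprc (-1.25 ± 0.22, adjusted p = 0.00864). It encodes the CD45 phosphatase, which acts on LCK, and is also on the pan-leukocyte list. In lung 20 of 23 rose, in liver the 1 tested gene rose, and in skin 4 of 11 did. With ABT-737 none of these fell under the filter, but all 23 in lung had a fitted change below 0. When all counted genes were fitted, 10 of 25 passed as lower in lung (0.579% of genes) and 3 of 25 in kidney (1.59%). Liver then had 3 of 26 (2.54%) and skin 0 of 26 (0.0896%). Of the 15 costimulatory and checkpoint receptors, 0 were tested in kidney and liver, 10 of 10 rose in lung and 0 of 3 in skin. In skin all 3 had a fitted change below 0, and the list summed to 92.6 to 107.8 CPM in young and 63.5 to 73.3 in vehicle skin. When all counted genes were fitted, 3 of 13 passed as higher in kidney and 1 of 8 in liver. Under the filter none passed as lower with ABT-737, although 9 of the 10 in lung and 1 of the 3 in skin had a fitted change below 0. In the fit of all counted genes, 3 of 15 passed as lower in lung, against 0 of 13 in kidney, 0 of 8 in liver and 0 of 15 in skin. The partners on antigen-presenting cells, that is the ligands of CD28 and CTLA-4 and the MHC class II genes, fell with ABT-737 for 6 of 7 tested in kidney and all 4 in liver, while in lung 0 of 9 and in skin 0 of 7 passed, where 0% of all genes did. H2-Eb1, an MHC class II chain, fell by 1.83 on the log2 scale in kidney (SE 0.20, adjusted p = 0.000191) and by 2.55 in liver (SE 0.31, adjusted p = 0.000264). Cd74, the invariant chain, fell by 1.86 in kidney (SE 0.23, adjusted p = 0.000504) and by 3.18 in liver (SE 0.36, adjusted p = 0.0002). Between young and vehicle, 6 of 7 genes of this list rose in kidney, all 4 in liver, while lung had 5 of 9 and skin 5 of 7.

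Of the 32 genes of T cell differentiation and homing, 2 of 18 tested fell with ABT-737 in kidney, Thy1, a surface protein of T cells (-1.97 ± 0.37, adjusted p = 0.0119), and Il2rg, the common cytokine receptor chain (-1.36 ± 0.31, adjusted p = 0.0369). In liver 1 of 5 fell, again Thy1 (-3.15 ± 0.61, adjusted p = 0.00699). Between young and vehicle, 10 of 18 rose in kidney (7.75% of all genes that met the filter) and 3 of 5 in liver (11.7%). Lung had 20 of 29 (8.15%) and skin 5 of 15 (5.84%). In the fit of all counted genes, 6 of 32 passed as lower with ABT-737 in kidney (1.59% of genes) and 6 of 29 in liver (2.54%). Lung then had 5 of 32 (0.579%) and skin 0 of 32 (0.0896%). Proliferation genes passed as higher between young and vehicle for 8 of 10 in lung, and for 0 of 6 in kidney and 0 of 10 in skin. None passed as lower with ABT-737 in any tissue under the filter. The fitted change with ABT-737 was below 0 for 6 of 6 in kidney and 9 of 10 in lung, and above 0 for 10 of 10 in skin. Among the markers of the tissues themselves, 1 of 8 kidney genes changed with ABT-737 in kidney, Lrp2, the endocytic receptor of the proximal tubule, which rose (0.74 ± 0.17, adjusted p = 0.0439), and 0 of 8 hepatocyte genes changed in liver, 0 of 8 epithelial genes in lung and 0 of 8 keratinocyte genes in skin.

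The genes whose level followed the members most closely were ranked by the Pearson correlation of log2(CPM + 1) with the members' mean over the libraries of a tissue, among all genes that met the filter. In lung (10 libraries, all 10 members in the mean) they were Ccl5 (r = 0.986), a chemokine of cytotoxic lymphocytes, Nkg7 (0.985), Eomes (0.984), a T-box factor of cytotoxic lymphocytes, Cd6 (0.983), a T cell surface relative of Cd5, and Rcc2 (0.982). In kidney (10 libraries, 5 members) they were Ptpn18 (0.984), Gm12216 (0.973), Pou2f2 (0.971) and the MHC class I genes H2-Q9 and H2-Q7 (0.970 each, with near-identical sequences). In skin (9 libraries, 3 members) they were Tmem173 (0.989), Glipr2 (0.981), Ssr4 (0.975), Tex264 (0.971) and Apobec1 (0.970). These are the top ranks of 11118 to 14221 genes over few libraries that share the same groups, and they are given as a description.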

How the data were processed

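RNA of 39 tissue samples was made into 3′ libraries by a bulk derivation of MARS-seq. Per the study's methods and the submitters' processing notes, the authors demultiplexed with bcl2fastq, aligned to mm10 with HISAT 0.1.5 and counted genes with HOMER; the deposited values are whole counts per gene, not normalized, with skin in a table of its own on other gene models. The libraries held 223957 to 3842808 counts.

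Each tissue was fitted with all 3 groups by edgeR 4.0.16 (TMM normalization, filterByExpr, quasi-likelihood test, Benjamini-Hochberg adjustment over all genes tested, in R 4.3.3), and again on every gene with at least 1 count, since members below the filter would otherwise be lost. Tissue differences came from 1 such fit over kidney, liver and lung. It took all libraries as independent, although the tissues share replicate numbers, and the labels used here do not say whether these name the same mice. A call is an adjusted p under 0.05. Alternatives were DESeq2 1.42.0, its size factors in edgeR, a minimum of 10 counts per library, a fit of just the groups compared, the replicate number as a block, and each library left out. The fits per tissue were tried on simulated counts for ABT-737 against vehicle, with genes that met the filter and 1 spread shared by all genes. That trial does not cover members below the filter or genes with a wider spread. Counting intervals are exact at 95%. Vehicle and ABT-737 libraries of the same number correlated in their deviations from the group means at 0.176 to 0.427 in lung, above 0.1 in all 3 pairs, and below that in at least 1 pair in each other tissue. Lungs of unlike numbers reached up to 0.302. The labels do not say that samples of a group are separate animals in so many words, so p-values measure the spread between these samples. All 10 members are reported, though not each with its values in every comparison. From each list, the 2 genes with the lowest p between ABT-737 and vehicle in kidney and in liver are named where they pass, with the 5 genes per tissue most like the members. The members and lists were chosen with earlier results of these data known.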

Additional observations from a re-analysis of the deposited data

Results flagged for a closer look

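Cd247 in the young lungs was picked out because the lung of young replicate 2, at 5.56 CPM, lay below the other 3, which read 7.8 to 8.14 CPM. Its gap to the nearest library was 0.867 of the group's whole range, above the 95% critical value for 4 samples. Of 16 groups of 4 libraries examined in this way 1 was picked out, and chance picks about 1 in 20. The vehicle lungs read 30.9 to 162 CPM, so the comparison with young mice does not turn on this library.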

How the results depend on the processing

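Counts of members past the threshold depended most on the low-count filter. With at least 10 counts in every library, 0 members were lower after ABT-737 in kidney, and between vehicle and young 0 were higher in kidney, 3 in lung and 0 in skin, since few members are then tested, and 0 were higher after ABT-737 than in young lungs. With at least 1 count, 9 members were higher in kidney and 5 in liver between vehicle and young, 3 were lower in liver and 4 in lung after ABT-737, and 1, 5 and 1 were higher after ABT-737 than in young mice in kidney, lung and skin. DESeq2 called 8 members in kidney and 3 in liver between vehicle and young (10.8% and 11.5% of all genes in either direction), 4 in lung between ABT-737 and vehicle (2.56%), and 5 in lung and 1 in skin between ABT-737 and young (5.65% and 12.4%). With only the groups compared, 2 were higher after ABT-737 than in young lungs. The replicate block gave 4 calls between ABT-737 and vehicle in lung, and 0 between ABT-737 and young there. In kidney, liver and skin the libraries of the same number did not correlate above 0.1 in every pair. There the block gave 2 calls in kidney and 0 in liver and skin between ABT-737 and vehicle. In skin it could not be fitted against young, which shares too few numbers. With each library left out, calls between ABT-737 and vehicle ran from 1 to 3 in kidney and 0 to 4 in lung, those between vehicle and young from 0 to 2 in skin, and those between ABT-737 and young from 0 to 3 (lung) or 1 (skin). Signs reversed between ABT-737 and vehicle for Cd28 in lung (-1.61 to 0.10, log2, the latter without vehicle replicate 5), Cd28 in skin (-0.47 to 0.41; 0.33 when the vehicle skin numbered 4 is dropped and 0.41 for the ABT-737 skin of that number) and Cd3e in skin (-1.88 to 0.18, the latter without vehicle replicate 5). Apart from the shrinking number of genes or samples tested, the cause was not tested. Over the settings that leave out no library, 289 of 325 values of single members kept their direction and side of the threshold, and 0 reversed. Depth limits the liver most, where members had at most 49 counts per group.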
